A study of Homo sapiens with 4 samples.

Results

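KCTD21, its relatives KCTD11 and KCTD6, their target HDAC1 and 6 core genes of Hedgehog signaling (PTCH1, SMO, SUFU, GLI1, GLI2 and GLI3) were followed in SK-N-BE(2) cells, a human neuroblastoma line with MYCN amplification. The 10 genes were matched by GENCODE symbol to Ensembl identifiers among the 64252 genes of the count table. Cells were transfected with a scrambled short hairpin RNA (sh-Scb) or with a hairpin against SAPCD2 (sh-SAPCD2), and RNA-seq was performed on 2 libraries per group. Nothing in the labels says that the libraries came from separate cultures, so a p-value measures the spread between these libraries, which may be technical. The 10 genes were selected with earlier results of this same contrast in view, so their own differences are descriptions and carry no p-value.

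KCTD proteins share a BTB-type domain through which many of them bind the ubiquitin ligase scaffold CUL3. KCTD11 (KCASH1), KCTD21 (KCASH2) and KCTD6 (KCASH3) form the KCASH group, named as KCTD-containing Cullin3 adaptors that suppress Hedgehog: they bring HDAC1 to CUL3 for degradation. HDAC1 removes an acetyl group from GLI1 and GLI2, and these transcription factors are more active without it. Upstream, a Hedgehog ligand binds the receptor PTCH1, PTCH1 then ceases to inhibit SMO, and SMO signals at the primary cilium so that GLI proteins are released from their inhibitor SUFU. PTCH1 and GLI1 are themselves target genes of the pathway. Hedgehog signaling is best known as a driver of medulloblastoma, in which loss of KCTD11 on the short arm of chromosome 17 is frequent.

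Library totals ran from 25347900 to 31850997 counts, and the detection floor, set at 3 counts, was 0.0955 to 0.119 CPM (each count relative to its library total, after TMM, which corrects for library composition). This floor covers counting error only. SAPCD2, the gene targeted by the hairpin, was at 83.6 and 82.2 CPM in sh-Scb and at 35.4 and 52.5 CPM in sh-SAPCD2, with a log2 fold change of -0.91 (SE 0.193, adjusted p = 0.0206, from the quasi-likelihood test of edgeR, adjusted by Benjamini and Hochberg's method over 18779 genes left by a filter on low counts; all adjusted p-values below are of this kind unless another tool is named). Without that filter the adjusted p was 0.0749. All 8 adrenergic neuroblastoma markers examined reached a mean of 1 CPM, with summed levels of 2791 to 2877 CPM in sh-Scb and 2259 to 3003 CPM in sh-SAPCD2, and 3 of them, among them ISL1 and DBH, fell. Of the markers of other cell types, SOX10 (Schwann cell) and CD3E (T cell) were at 0 in every library. The 4 Schwann cell markers together gave 2.40 to 3.73 CPM in sh-Scb and 4.90 to 7.13 CPM in sh-SAPCD2, the 4 fibroblast markers 179 to 198 and 170 to 222 CPM, the 3 endothelial markers 0.0727 to 0.471 and 0.987 to 1.03 CPM, and the 3 leukocyte markers 9.01 to 9.74 and 11.02 to 12.8 CPM. LUM gave most of the fibroblast sum, with means of 147 CPM in sh-Scb and 160 CPM in sh-SAPCD2. DCN was at 29.9 and 24.2 CPM, COL3A1 at 8.40 and 8.48 and COL1A1 at 3.54 and 3.20. PTPRC gave most of the leukocyte sum, at 9.32 and 11.5 CPM, with CD68 at 0.0544 and 0.408 CPM. The part of these marker shifts in the results below was not tested. In bulk RNA, fewer cells of a type and less RNA per cell cannot be told apart.

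KCTD21 was the gene of the set with the widest separation between groups. KCTD21 (ENSG00000188997, hg38 chr11:78171249-78188626, minus strand) has 2 exons and an annotated transcript of 3389 bases. It had 358 and 417 counts in the sh-Scb libraries and 38 and 33 counts in the sh-SAPCD2 libraries. These are 13.0 and 15.2 CPM against 1.501 and 1.05 CPM. Both knockdown libraries lay far below both control libraries and far above the floor. The means were 14.1 ± 1.55 CPM (SD, n = 2) in sh-Scb and 1.28 ± 0.318 CPM (SD, n = 2) in sh-SAPCD2, an 11.1-fold lower level, with a log2 fold change of -3.47 (SE 0.248). Of the control mean, 10.7% was left in the first knockdown library and 7.47% in the second. SAPCD2 itself, the target of the hairpin, kept 42.7% and 63.3% in the same libraries. With 38 and 33 counts of KCTD21 in 2 libraries, no relation between the levels of the genes is read from this. Among all tested genes the fold change of KCTD21 ranked 21 from the lowest, and among those with a mean of at least 1 CPM it ranked 4.

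KCTD11 and KCTD6 did not share this pattern. KCTD11 (ENSG00000213859, chr17:7351889-7354944, plus strand) was measured at 57 and 64 counts in sh-Scb and at 31 and 84 counts in sh-SAPCD2. The knockdown libraries lay on either side of the controls, and the means were 2.19 ± 0.186 and 1.95 ± 1.03 CPM (SD, n = 2 each). Its log2 fold change of -0.16 (SE 0.406) became 0.28 when the first knockdown library was left out and -0.84 when the second was left out. KCTD6 (ENSG00000168301, chr3:58492096-58502360, plus strand) was measured at 221 and 240 counts in sh-Scb and at 236 and 249 counts in sh-SAPCD2. The groups overlapped here too, with means of 8.36 ± 0.511 and 8.63 ± 0.986 CPM (SD, n = 2 each) and a log2 fold change of 0.04 (SE 0.180).

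Per kilobase of transcript, which allows levels of different genes to be compared, KCTD6 was the most abundant KCASH transcript in sh-Scb with 5.38 CPM per kb, ahead of KCTD21 with 4.15 and KCTD11 with 0.789 CPM per kb. The control libraries of these 3 genes did not overlap. In sh-SAPCD2 the level of KCTD6 was 5.55 CPM per kb, that of KCTD11 0.701 and that of KCTD21 0.377 CPM per kb. KCTD11 ranged from 0.440 to 0.961 and KCTD21 from 0.310 to 0.443 CPM per kb in the knockdown libraries, so their libraries overlapped and their order there was not beyond their spread. From the annotated coding sequences, the KCTD21 protein has 260 amino acids, KCTD11 has 271 and KCTD6 has 237. KCTD21 was identical to KCTD11 at 44.4% of 252 aligned positions and to KCTD6 at 44.1% of 211, and KCTD11 was identical to KCTD6 at 38.6% of 220.

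**Figure D1:**
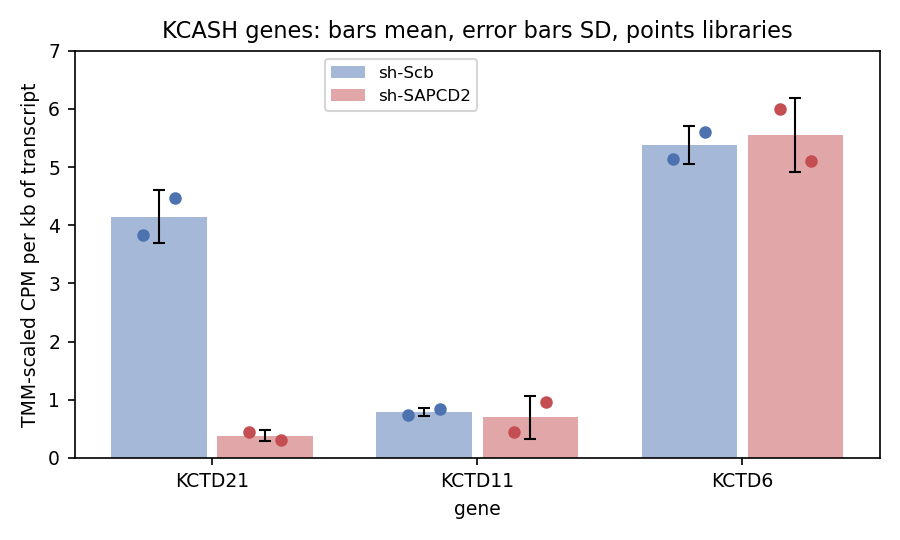
Level of the 3 KCASH genes in TMM-scaled CPM per kb of annotated transcript. Bars are means, error bars are SD and points are the 2 libraries of sh-Scb (blue) and of sh-SAPCD2 (red). KCTD21 went from 4.15 to 0.377 CPM per kb, whereas the libraries of KCTD11 and KCTD6 overlapped between groups.

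HDAC1, the deacetylase that KCASH proteins bring to degradation, differed little in mRNA level. Its libraries gave 66.5 and 66.4 CPM in sh-Scb and 56.5 and 65.6 CPM in sh-SAPCD2. Both knockdown libraries were below the controls, the second by less than 1 CPM, and the log2 fold change was -0.12 (SE 0.121). HDAC1 protein was not measured in these libraries.

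Among the signaling genes, SUFU, SMO, GLI2 and the scarce GLI1 were lower in both knockdown libraries, and PTCH1 was not. PTCH1, the ligand receptor, had 109.8 and 108.5 CPM in sh-Scb and 115.7 and 117.9 CPM in sh-SAPCD2, with a log2 fold change of 0.10 (SE 0.0961). The groups did not overlap. SMO, the transducer that PTCH1 inhibits, had 40.4 and 37.0 CPM in sh-Scb and 29.2 and 32.8 CPM in sh-SAPCD2. Its log2 fold change was -0.32 (SE 0.133). SUFU, the cytoplasmic inhibitor of GLI proteins, had 32.6 and 32.9 CPM in sh-Scb and 21.3 and 24.2 CPM in sh-SAPCD2. Its log2 fold change was -0.52 (SE 0.134), so a mean of 69.5% of the control level was left.

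GLI2, the main activator form of GLI downstream of SMO, had 27.0 and 28.1 CPM in sh-Scb and 19.3 and 22.3 CPM in sh-SAPCD2, and its log2 fold change was -0.40 (SE 0.141). GLI1, an activator and a target of the pathway, was scarce, with 36 and 45 counts in sh-Scb and 24 and 31 counts in sh-SAPCD2. Its levels were 1.30 and 1.64 CPM against 0.948 and 0.987 CPM, and its log2 fold change was -0.60 (SE 0.334). GLI1 overlaps ARHGAP9 in the annotation, and the counting is not stated to use strand. GLI3, which acts mostly as a repressor, had 2 and 0 counts in sh-Scb and 0 and 10 counts in sh-SAPCD2 and did not pass the filter. The control libraries were below the floor, as was the first knockdown library, so no difference was detectable at this depth.

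Of the 10 genes, 9 passed the filter on low counts. KCTD21 and SUFU were below an adjusted p of 0.05 and lower, where 12.5% of all tested genes were lower, and none was higher by edgeR or DESeq2, where 12.4% of all tested genes were higher. With an absolute log2 fold change over 1 in addition, KCTD21 alone remained, where 5.15% of all tested genes were lower and 4.69% were higher. The groups did not overlap for 7 of the 9 genes, and they did not overlap for 67.0% of all tested genes. The median log2 fold change was -0.32 over the 9 genes and 0.02 over all tested genes. Without either control library 1 of the set was called lower, and without sh-SAPCD2 replicate 2 there were 5. Nothing is read from these counts, since the genes were selected on this contrast.

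**Figure D2:**
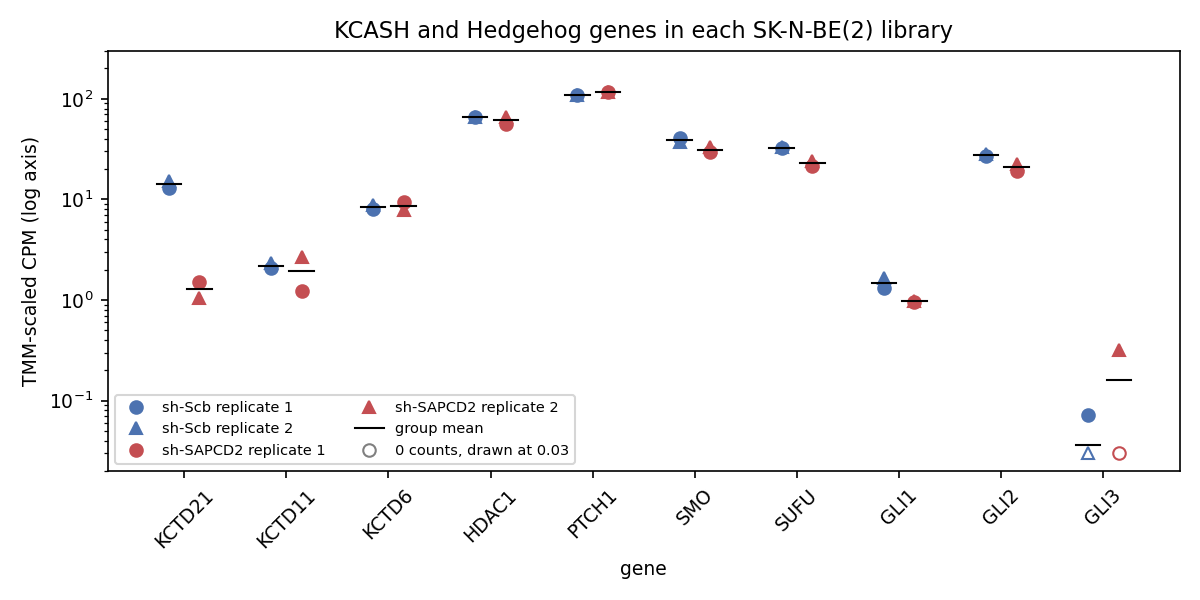
TMM-scaled CPM (log axis) of the 10 genes in each SK-N-BE(2) library, with sh-Scb in blue, sh-SAPCD2 in red, circles for replicate 1, triangles for replicate 2 and black lines for group means. KCTD21 fills the range from 1.05 to 15.2 CPM without overlap, PTCH1 and HDAC1 keep close to their controls, and GLI3 is at or near 0.

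In control cells the order of the levels per kilobase was HDAC1 (31.4 CPM per kb), PTCH1 (12.6), SMO (9.72), SUFU (6.53), KCTD6 (5.38), KCTD21 (4.15), GLI2 (3.86), KCTD11 (0.789), GLI1 (0.370) and GLI3 (0.0043). KCTD21, with 3.82 and 4.47 CPM per kb, overlapped its neighbor GLI2 with 3.79 and 3.93 CPM per kb, whereas the other neighbors in this order did not overlap. In knockdown cells the order became HDAC1 (28.8), PTCH1 (13.5), SMO (7.80), KCTD6 (5.55), SUFU (4.54), GLI2 (2.92), KCTD11 (0.701), KCTD21 (0.377), GLI1 (0.244) and GLI3 (0.0189). KCTD21 overlapped KCTD11 there, as given above.

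The hairpins of the study were examined because any hairpin can also act on other transcripts through a short match. The labels do not say which of the hairpins against SAPCD2 these libraries carry, and the study's heat map of them names #1. The guide arms are shown with the seed (bases 2 to 8) in capitals:

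sh-SAPCD2 #1 guide: aTGAAGGTggaatccagaggt

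sh-SAPCD2 #2 guide: aTCATCTCcaaaccctgcagc

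The site complementary to the seed of #1 is ACCTTCA, found in 12.5% of 13583 annotated 3′ untranslated regions and, among the 10 genes, in those of SMO and GLI3. The KCTD21 region did not hold it. The median log2 fold change was -0.04 for tested genes with this site and 0.05 for those without it. The site for the seed of #2, GAGATGA, is in 14.8% of the regions and in those of KCTD21, SUFU and GLI2, with medians of -0.01 for genes with it and 0.04 for genes without it. A further site, TCCACCT, pairs with bases 5 to 11 of #1 and was singled out earlier from these same data, so it is no independent evidence. It is in 17.9% of the regions, and the median log2 fold change was -0.12 for genes with it and 0.07 for genes without it. The site for bases 5 to 11 of #2 was not searched. The length of the regions was not matched between genes with and without a site, so nothing is read from these medians. The 3′ regions of KCTD21, SUFU, GLI2 and PTCH1 hold TCCACCT of #1, and those of KCTD11, KCTD6, HDAC1, SMO, GLI1 and GLI3 do not. The guide is shown again with bases 5 to 11 in capitals, and the sites with the 7 matching bases in capitals, so that KCTD21 can be set beside the other genes of the set that hold it:

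sh-SAPCD2 #1 guide: atgaAGGTGGAatccagaggt

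KCTD21: tgatgaagTCCACCTtttggaatccagt

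SUFU, first site: acaggcccTCCACCTcacctccagctca

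SUFU, second site: ttgaaaaaTCCACCTcttaacatctctt

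GLI2: attcctggTCCACCTgaattcctctatg

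PTCH1: cctaaacaTCCACCTaatcctttcaaat

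In KCTD21 the 7 bases lie at hg38 chr11:78173618-78173624, from base 148 of a 3′ untranslated region of 2523 bases. SUFU holds its sites from bases 169 and 1059 of its region, GLI2 from base 470 and PTCH1 from base 776. The log2 fold changes of KCTD21, SUFU, GLI2 and PTCH1 were -3.47, -0.52, -0.40 and 0.10. Those of the tested genes of the set without the site ran from -0.60 (GLI1) to 0.04 (KCTD6). The longest unbroken match of the KCTD21 transcript to the guide arm of #1 was 9 bases, a length that 19.1% of 17467 transcripts reach, and to the other arm 10 bases, which 6.17% reach. SAPCD2 matched the guide arm over 21 bases. A match is a description of letters, and whether the hairpin acted on KCTD21, SUFU or GLI2 was not tested. No library with SAPCD2 restored was analysed here, so the loss of SAPCD2 and the presence of the hairpin cannot be told apart.

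The genes around KCTD21 were examined to see whether the whole stretch of chromosome 11 was lower. Within 250 kb of KCTD21, 9 other genes were tested, of which 0 were called lower and 2 higher by edgeR, beside 12.5% lower and 12.4% higher among all tested genes. At an unadjusted p under 0.05, for which no share over all genes is given, 1 was lower. DESeq2 called 1 lower and 2 higher, where it called 2337 lower and 2594 higher of 16958 genes. The median log2 fold change of the 9 genes was -0.07. USP35, a deubiquitinase gene on the opposite strand whose start lies 186 bp from that of KCTD21, rose from 19.9 and 18.4 CPM in sh-Scb to 28.5 and 35.6 CPM in sh-SAPCD2. Its log2 fold change was 0.74 (SE 0.160, adjusted p = 0.0219), and its adjusted p was 0.0847 without sh-Scb replicate 1, 0.16 without sh-Scb replicate 2 and 0.0665 without the filter on low counts. NARS2, a mitochondrial asparaginyl-tRNA synthetase gene, rose as well, with a log2 fold change of 0.53 (SE 0.112, adjusted p = 0.0211).

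KCTD21-AS1, a noncoding gene on the other strand whose span covers the last exon of KCTD21, had 113 and 128 counts in sh-Scb and 113 and 122 counts in sh-SAPCD2. Its log2 fold change was -0.07 (SE 0.218, adjusted p = 0.844) and the groups overlapped. Since the counting is not stated to use strand, reads in the shared stretch cannot be assigned with certainty to either gene. ALG8, next along the chromosome, had a log2 fold change of -0.44 (adjusted p = 0.0650), and KCTD14, another KCTD gene nearby, one of -1.04 (SE 0.599, adjusted p = 0.249) with knockdown levels of 4.94 and 1.11 CPM.

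**Figure D3:**
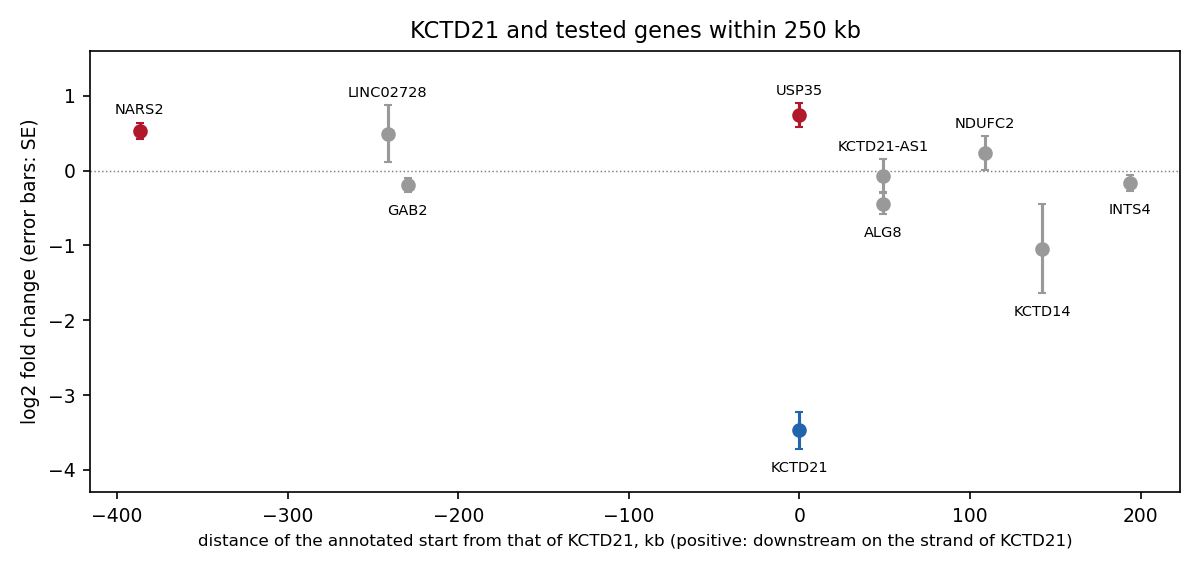
Log2 fold change with SE (sh-SAPCD2 against sh-Scb) of KCTD21 and the 9 tested genes within 250 kb of it, against the distance between annotated starts in kb. KCTD21 is at -3.47, its head-to-head neighbor USP35 at 0.74, and the other neighbors lie between -1.04 and 0.53.

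KCTD21 and USP35 start back to back, and the 185 bases between their annotated starts are shown because the transcripts on both sides of it differed in opposite directions. The stretch is chr11:78188627-78188811 (GRCh38.p14, minus strand, RefSeq promoter sequence), with a GC content of 71.9%. It is printed on the strand of KCTD21, so its first base adjoins USP35 and its last base adjoins KCTD21. The label names the genes and not the direction:

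KCTD21 to USP35: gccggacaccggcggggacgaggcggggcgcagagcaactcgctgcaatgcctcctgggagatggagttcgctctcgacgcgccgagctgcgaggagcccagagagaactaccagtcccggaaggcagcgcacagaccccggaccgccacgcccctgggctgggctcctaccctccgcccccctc

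RefSeq promoter windows, from 250 bases before to 50 after a start, were found for 8 of the 10 genes, as 13 windows. On both strands, the GLI motif GACCACCCA was in 0.236% of 35116 windows of all genes and, in the set, in 1 window of PTCH1. The E2F motifs TTTCCCGC, TTTGGCGC, TTTCGCGC and TTTGCCGC were in 3.31% of all windows and in 0 windows of the set. The CHR motifs TTTGAA and TTTCGAA, known from cell cycle genes, were in 15.7% of all windows and in 1 window of GLI2. Windows of KCTD21 held none of these letters. The GLI motif of PTCH1, in capitals on the strand printed, lies 172 bp before an annotated start and is shown because PTCH1 is a classical GLI target (chr9:95509390-95509478, minus strand, GRCh38.p14):

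PTCH1: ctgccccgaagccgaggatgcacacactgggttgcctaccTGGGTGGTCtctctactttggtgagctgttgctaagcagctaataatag

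PTCH1 was at 107% of the control level in knockdown cells. A match in a promoter is a description and not a measured binding site.

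Hedgehog genes beyond the set were examined with lists compiled from general knowledge, but with earlier results of these data known. The same holds for the KCTD, deacetylase and HDAC1 partner lists below. Of 71 Hedgehog genes in 5 lists, 59 were tested, of which 12 fell and 6 rose (20.3% and 10.2%, against 12.5% and 12.4% of all tested genes). Their median log2 fold change was -0.11. Without the filter on low counts 5 fell, where 1180 of 34935 genes fell over all. With a library left out these counts changed along with those over all genes, and both are given below. The 3 ligands were at or below the floor in nearly every library: SHH and DHH had 0 counts in all 4, and IHH had 2 and 0 counts in sh-Scb and 0 and 4 counts in sh-SAPCD2. Of the 4 tested genes for ligand processing and release, edgeR called 0, beside 12.5% lower and 12.4% higher among all tested genes. DESeq2 also called 0, where it called 2337 lower and 2594 higher of 16958 genes. At an unadjusted p under 0.05, for which no share over all genes is given, there was 1.

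Of 5 tested receptors and co-receptors outside the set, 3 fell and 0 rose, beside 12.5% lower and 12.4% higher among all tested genes. DESeq2 called 3 and 0, where it called 2337 lower and 2594 higher of 16958 genes. At an unadjusted p under 0.05, 4 were lower and 0 were higher. No share over all genes is given at that threshold, so nothing is read from it. CDON, a co-receptor that binds ligand beside PTCH1, had 53.7 and 48.7 CPM in sh-Scb and 30.2 and 22.4 CPM in sh-SAPCD2, with a log2 fold change of -0.96 (SE 0.174, adjusted p = 0.0132). GAS1, a membrane-anchored co-receptor, fell by 1.39 on the log2 scale, from 3.90 to 1.48 CPM in mean. GPC3, a glypican that competes with PTCH1 for ligand, fell by 0.83. BOC, the co-receptor most like CDON, was at 99.6 and 115 CPM in mean with a log2 fold change of 0.21 (adjusted p = 0.222). The adjusted p of GAS1 was 0.0518 without sh-Scb replicate 2, that of GPC3 was 0.109 without sh-Scb replicate 1, and that of CDON was 0.0507 without the filter on low counts.

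Among 27 regulators of SMO and GLI proteins, 5 fell and 2 rose (18.5% and 7.41%, beside 12.5% and 12.4% of all tested genes). GSK3B, a kinase that phosphorylates GLI proteins after priming by protein kinase A, had 136.7 and 136.1 CPM in sh-Scb and 74.7 and 57.5 CPM in sh-SAPCD2, with a log2 fold change of -1.05 (SE 0.146, adjusted p = 0.00646). PRKACB, a catalytic subunit of protein kinase A, fell by 0.91. The call of GSK3B held in every alternative run. That of PRKACB held in all but the one that required an absolute log2 fold change over 1. GPR161, a ciliary receptor that inhibits the pathway, fell by 0.48, and IQCE, of the ciliary EVC complex, by 0.65. ARRB1 (beta-arrestin) rose by 0.67 and CSNK1D (casein kinase) by 0.62. CUL3, the ligase scaffold that KCASH proteins use, had 116.2 and 115.0 CPM in sh-Scb and 137.0 and 111.0 CPM in sh-SAPCD2, and the groups overlapped. The calls of GPR161, IQCE, ARRB1 and CSNK1D were lost without sh-Scb replicate 1 or without sh-Scb replicate 2, with adjusted p-values of up to 0.326, 0.195, 0.172 and 0.16.

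The cilium transport list had 9 tested genes, of which 2 fell and 0 rose, beside 12.5% lower and 12.4% higher among all tested genes. By DESeq2 3 fell and 0 rose, where it called 2337 lower and 2594 higher of 16958 genes. At an unadjusted p under 0.05, 5 were lower and 0 were higher. Nothing is read from that threshold, since no share over all genes is given at it. IFT52, a subunit of the intraflagellar transport B complex that builds the cilium, had 36.2 and 37.5 CPM in sh-Scb and 12.0 and 13.8 CPM in sh-SAPCD2. Its log2 fold change was -1.52 (SE 0.142, adjusted p = 0.00312), and it was called in every alternative.

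GLI target genes did not move one way. Of 20, 14 were tested, of which 2 fell and 4 rose (14.3% and 28.6%, beside 12.5% and 12.4% of all tested genes). MYCN, which is amplified in this line and so is not a simple readout of GLI here, went from 3235 and 3178 CPM to 5904 and 7091 CPM, with a log2 fold change of 1.02 (SE 0.111, adjusted p = 0.00378). CCND1 (cyclin D1) went from 440.5 and 429.3 CPM to 734.0 and 783.5 CPM, with a log2 fold change of 0.80 (SE 0.0930, adjusted p = 0.0043). SFRP1, a secreted inhibitor of WNT, rose by 0.65 and HSD11B2, a glucocorticoid-inactivating enzyme, by 1.26. FOXM1, a transcription factor of mitotic genes, fell by 0.66 and PDGFRA, a growth factor receptor, by 0.71. The calls of SFRP1, FOXM1 and PDGFRA were lost without sh-Scb replicate 1 or sh-Scb replicate 2, with adjusted p-values of up to 0.123, 0.0963 and 0.175. Together with PTCH1 at 0.10 and GLI1 at -0.60, the target genes thus had values on both sides of 0 in the same libraries.

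**Figure D4:**
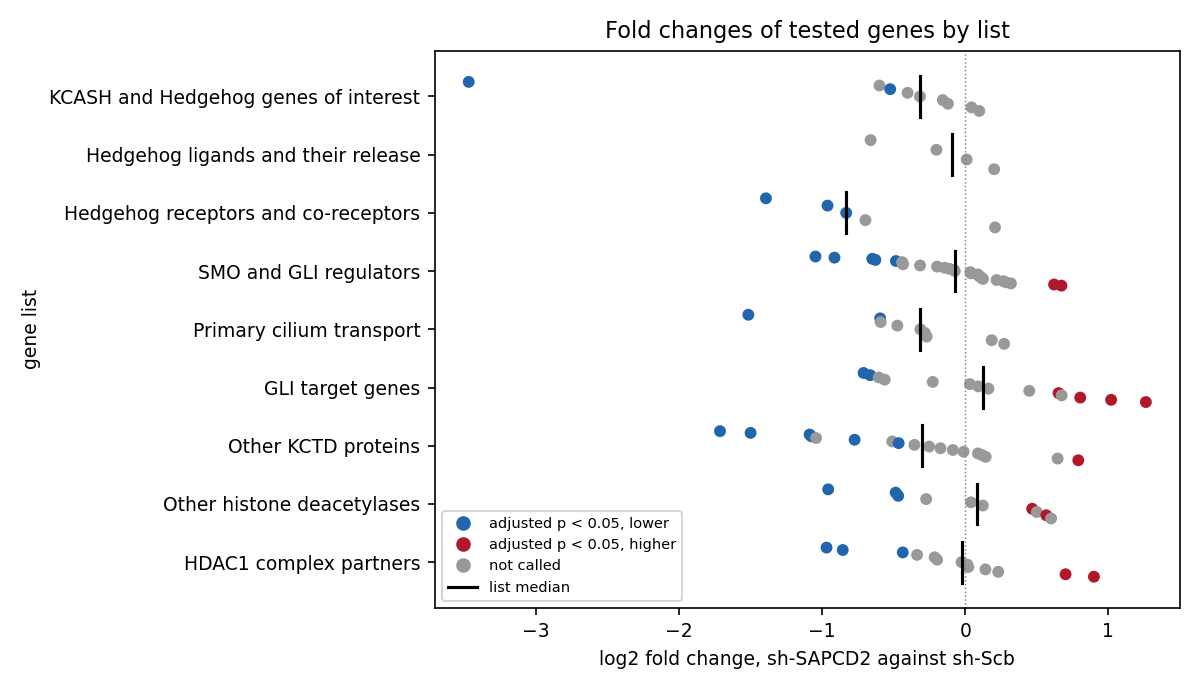
Log2 fold change (sh-SAPCD2 against sh-Scb) of each tested gene by list, with genes at an adjusted p under 0.05 in blue (lower) or red (higher), the others in gray, and the list median as a black line. KCTD21, which was selected with this contrast in view, is at -3.47. The co-receptor list has a median of -0.83 and the GLI target list one of 0.13.

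Of 20 KCTD genes outside the KCASH group, 18 were tested, of which 6 fell and 1 rose (33.3% and 5.56%, against 12.5% and 12.4% of all tested genes), with a median log2 fold change of -0.30. With an absolute log2 fold change over 1 in addition, 4 fell, beside 5.15% of all tested genes. KCTD17, which links CUL3 to the ciliary regulator trichoplein, had 27.4 and 27.2 CPM in sh-Scb and 8.10 and 11.1 CPM in sh-SAPCD2, with a log2 fold change of -1.50 (SE 0.188, adjusted p = 0.00519). KCTD12 and KCTD16, auxiliary subunits of GABA-B receptors, fell by 1.09 and 1.08. KCTD16 had 93.7 and 91.7 CPM in sh-Scb and 48.7 and 39.3 CPM in sh-SAPCD2. These 3 genes were called in every alternative. KCTD9 fell by 0.77 and KCTD19 by 1.71, the latter from 1.83 to 0.548 CPM in mean, and KCTD10 rose by 0.79. KCTD9 and KCTD10 lost their calls without sh-Scb replicate 1 or sh-Scb replicate 2, with adjusted p-values of up to 0.0881 and 0.0627, and KCTD19 had 0.284 without sh-Scb replicate 1 and 0.0892 without sh-SAPCD2 replicate 1. With a library left out the number of KCTD genes that fell changed, as given below beside that over all genes. The lowest log2 fold change of these 18 genes, -1.71 for KCTD19, was nearer to 0 than the -3.47 of KCTD21. KCTD21 was selected with this contrast in view, so nothing is read from that difference.

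**Figure D5:**
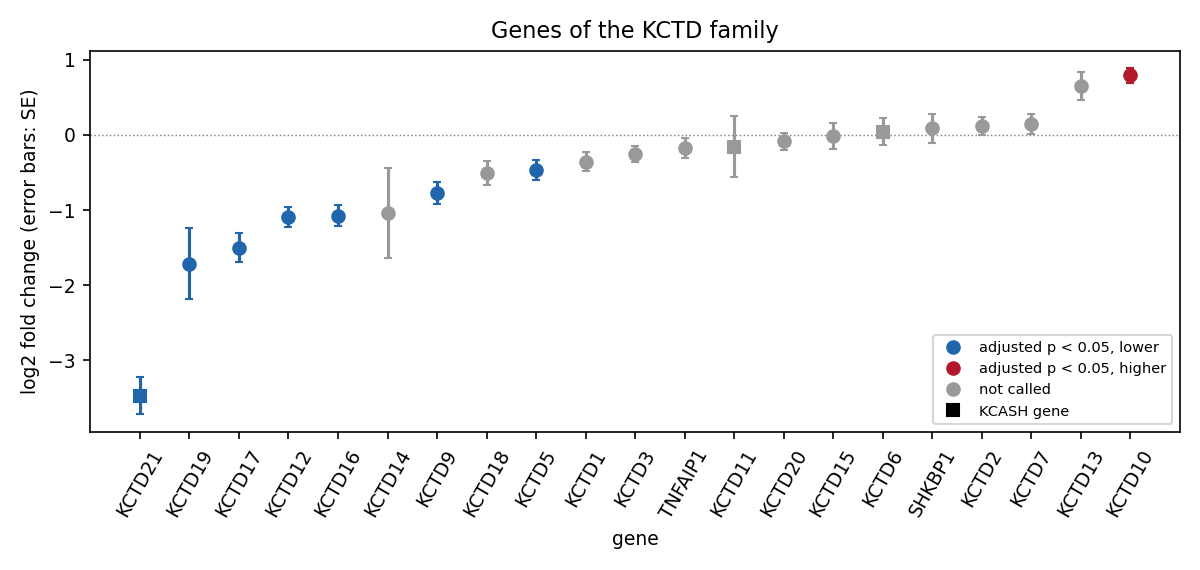
Log2 fold change with SE of the 21 tested KCTD family genes, ordered by value, with KCASH genes as squares and the others as circles. KCTD21, which was selected with this contrast in view, is lowest at -3.47, and KCTD11 and KCTD6 lie near 0. Genes at an adjusted p under 0.05 are blue (lower) or red (higher).

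Among 10 histone deacetylases other than HDAC1, 3 fell and 2 rose, beside 12.5% lower and 12.4% higher among all tested genes, with a median log2 fold change of 0.08. HDAC9, a class IIa enzyme, had 251.7 and 256.0 CPM in sh-Scb and 133.2 and 128.1 CPM in sh-SAPCD2, with a log2 fold change of -0.96 (SE 0.0946, adjusted p = 0.00322). It was called in every alternative but the one that required an absolute log2 fold change over 1. HDAC3 fell by 0.49 and HDAC6 by 0.47, and HDAC4 and HDAC7 rose by 0.47 and 0.57. These 4 calls were lost without sh-Scb replicate 1 or sh-Scb replicate 2 and without the filter on low counts, with adjusted p-values of up to 0.414. How the deacetylase counts changed with a library left out is given below beside the counts over all genes. HDAC2, the close relative of HDAC1, had 376.2 and 384.7 CPM in sh-Scb and 338.0 and 291.6 CPM in sh-SAPCD2 (log2 fold change -0.27, adjusted p = 0.117).

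Of 13 partners in the complexes through which HDAC1 acts, 3 fell and 2 rose (23.1% and 15.4%, beside 12.5% and 12.4% of all tested genes), with a median of -0.03. MTA3, of the NuRD complex, fell by 0.86 and CHD3, a NuRD remodeler, rose by 0.90. Both were called in every alternative but the one that required an absolute log2 fold change over 1. CHD4, another NuRD remodeler, was at 532 and 522 CPM in mean, above CHD3 at 104 and 193 CPM. The log2 fold change of CHD4 was -0.03 (adjusted p = 0.860). RCOR1, the CoREST scaffold, fell by 0.97, the histone chaperone RBBP4 by 0.44, and SIN3B, a corepressor scaffold, rose by 0.70. RCOR1 had an adjusted p of 0.0684 without the filter on low counts, and RBBP4 and SIN3B had up to 0.353 and 0.103 without a control library. The partner counts with a library left out are given below beside those over all genes.

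The genes whose pattern over the 4 libraries was most like that of KCTD21 were sought among 15683 genes with a mean of at least 1 CPM, by the Euclidean distance between log2 CPM values centred on each gene's mean. The nearest were CLSTN2 (distance 0.294), a synaptic calsyntenin, SEMA5A (0.403), a semaphorin of axon guidance, ENSG00000270977 (0.563), a processed pseudogene, ENSG00000225589 (0.600) and C12orf75 (0.661). CLSTN2 had 329 and 351 counts in sh-Scb and 26 and 28 counts in sh-SAPCD2, and SEMA5A had 705 and 673 counts against 57 and 71 counts. A distance over 4 libraries rests almost wholly on the difference between the 2 groups, and the choice of these genes by it leaves their differences as descriptions.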

How the data were processed

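Transcripts of SK-N-BE(2) cells with sh-Scb or sh-SAPCD2 were sequenced (2 libraries each). Paired-end reads were aligned by the authors to hg38 with HISAT2 2.2.0 and assembled with StringTie, and raw counts per Ensembl gene were deposited without scaling. How abundances became counts, which annotation was used, whether counting used strand and how multiply mapped reads were treated are not given in the sources used here. A gene with near-identical copies or an overlapping gene may therefore share reads.

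Groups came from the titles. The main test was edgeR 4.0.16 (quasi-likelihood, under R 4.3.3) on TMM-scaled counts, after filterByExpr at 10 counts and 15 counts in total, with Benjamini-Hochberg adjusted p under 0.05 over 18779 genes. Of the 64252 genes, 29317 had no count, and 17467 tested genes matched GENCODE 44. The fit of all 4 libraries was tried on simulated counts, and the fits with a library left out were not. The biological coefficient of variation was 15.4%. The members and lists were chosen with earlier results of these data known. Named genes are the 10 genes, SAPCD2, the ligands, per list at most 6 called genes with the smallest p, overlapping genes and the 5 nearest patterns. Genes given from counts of 5 or fewer, CUL3, HDAC2, BOC, CHD4, KCTD14, ALG8, NARS2, USP35 and the single cell type markers were named after their values were seen. Some genes that enter the counts are not reported here by name. Proteins were translated from annotated coding sequences and aligned globally (BLOSUM62, gap penalties 11 and 1, Biopython 1.88), and the annotated KCTD11 coding sequence begins at a codon other than ATG. Hairpin sequences came from the supplementary methods and promoters from RefSeq (GRCh38.p14).

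As alternatives, DESeq2 1.42.0 replaced edgeR, DESeq2 size factors or raw totals replaced TMM, the filter was dropped or set to a 1 CPM mean, replicate number entered as a replicate block, a log2 fold change over 1 was required, and each library was omitted in turn. Where that left a single library in a group, it was assumed to vary like the other group. The replicate numbers did not pair the libraries in the labels.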

Additional observations from a re-analysis of the deposited data

How the results depend on the processing

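In all, 500 values were recomputed for 50 named genes, KCTD21 and SAPCD2 included. Of these, 54 lost the threshold, 3 moved by more than the spread and 443 did neither. A call changed sign in 0 values. The sign changed in 5 values of 3 genes that were not called, KCTD11 (0.28 without sh-SAPCD2 replicate 1), KCTD6 (-0.02 without sh-Scb replicate 1 and -0.08 without sh-SAPCD2 replicate 1) and KCTD21-AS1 (0.03 without sh-Scb replicate 2 and also without sh-SAPCD2 replicate 2). Of 39 named genes outside the set that were called, 17 were called in every alternative, that with a log2 fold change over 1 left aside. The 39 include the 5 genes nearest to KCTD21 in pattern, which were chosen by their difference between the groups. The 39 are thus no sample of all called genes. Calls were lost for 15 without the filter on low counts, for 19 without sh-Scb replicate 1, for 18 without sh-Scb replicate 2, for 1 without sh-SAPCD2 replicate 1 and for 0 without sh-SAPCD2 replicate 2, under DESeq2, another scaling, a mean of 1 CPM or the replicate block. The cause was not tested.

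Without the filter, with 34935 genes tested, 1180 genes were lower and 1081 higher overall against 2339 and 2326. Of the lists, 5 Hedgehog genes, 1 other deacetylase, 1 HDAC1 partner and 1 gene of the set were then lower, and 0 other deacetylases were higher. SAPCD2 kept a log2 fold change of -0.91 but lost the threshold. At an absolute log2 fold change over 1, 968 genes were lower and 880 higher. Then 3 Hedgehog genes were lower and 2 higher, 0 other KCTD genes were higher, 0 other deacetylases and 0 HDAC1 partners were called either way, and 1 gene of the set was lower. DESeq2, its size factors, library totals, a mean of 1 CPM and the replicate block each called 2 other KCTD genes higher.

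With each library left out in turn, lower and higher calls ranged from 1146 to 4014 and from 1176 to 4396 over all genes, from 5 to 20 and 3 to 13 for Hedgehog genes, from 3 to 10 and 0 to 2 for other KCTD genes, from 1 to 4 and 0 to 5 for other deacetylases, and from 2 to 6 and 1 to 3 for HDAC1 partners. Lower calls in the set ranged from 1 to 5. The log2 fold change of KCTD21 ranged from -3.74 to -3.22.

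The replicate block gave 2701 lower and 2860 higher genes and a log2 fold change of -3.47 for KCTD21. The deviations of same-numbered libraries correlated at -0.0188 across genes, so the numbers are not treated as pairs. Counts of 3 or fewer, as for GLI3, are at the limit of the depth.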

Other observations

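Within 250 kb of KCTD11, in a gene-dense stretch of chromosome 17, 34 genes were tested, of which 3 fell and 9 rose, beside 12.5% lower and 12.4% higher among all tested genes, with a median log2 fold change of 0.34. The genes that fell were POLR2A, the largest subunit of RNA polymerase II (log2 fold change -0.39, adjusted p = 0.0339), MPDU1 (-0.57, adjusted p = 0.0308) and GPS2, a corepressor subunit (-0.59, adjusted p = 0.0274). SLC2A4, the insulin-responsive glucose transporter, was among those that rose, from 4.996 and 4.94 CPM in sh-Scb to 10.1 and 10.1 CPM in sh-SAPCD2. Within 250 kb of KCTD6, 6 genes were tested and edgeR called 0, beside 12.5% lower and 12.4% higher among all tested genes. DESeq2 also called 0, where it called 2337 lower and 2594 higher of 16958 genes. At an unadjusted p under 0.05, for which no share over all genes is given, there were 0. Log2 fold changes ran from -0.41 to 0.26. The 4 genes named here were chosen after their values were seen.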
